A study of Mus musculus with 25 samples.

Results

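The extracellular matrix proteases and their inhibitors described here comprise 10 genes out of 48795 in the count tables. They are 6 matrix metalloproteinases (Mmp2, Mmp7, Mmp8, Mmp9, Mmp13 and Mmp14), the secreted protease Adamts1 and 3 tissue inhibitors of metalloproteinases (Timp1, Timp2 and Timp3). The genes are a list of symbols drawn up with earlier results of these data known, with no cut on measured values, and all 10 passed the filter on low counts.

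Matrix metalloproteinases are zinc-dependent enzymes that cut collagens, other matrix proteins and many cell surface proteins. Most are secreted as inactive precursors, and their activity is set by removal of the propeptide and by binding of the tissue inhibitors as well as by transcription. Mmp8 (neutrophil collagenase) and Mmp13 (the main interstitial collagenase of rodents) cleave fibrillar collagen. Mmp2 and Mmp9 are the gelatinases, Mmp7 is the small epithelial matrilysin, and Mmp14 is a membrane-anchored protease that activates pro-Mmp2 together with Timp2. Adamts1 cleaves proteoglycans such as versican. In liver, stellate cells, macrophages, neutrophils and bile duct epithelium are known sources of different members, and the balance of proteases and inhibitors is a known feature of fibrosis and tumor invasion.

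RNA was measured in liver and tumor of male C57BL/6J mice that were injected with 25 mg/kg of the carcinogen diethylnitrosamine (DEN) at 2 weeks of age or left untreated. Feeding with a western diet (WD) or control diet (CD) began at weaning, and the mice were killed at an age of 36 to 39 weeks. Untreated mice gave 3 control-diet livers, called nonDEN-L-CD, and 4 western-diet livers, called nonDEN-L-WD. The DEN-L-CD group held 4 livers of injected mice fed control diet. Injected mice fed western diet gave the 8 samples of liver around tumors named DEN-PT-WD (peritumoral) and the 6 tumors named DEN-T-WD. Tumors of DEN-injected mice on control diet were not separated from liver because of their small size, so DEN-L-CD tissue may hold some. The study's methods speak of biological replicates, but the labels do not say whether each sample came from its own animal or which tumor came from which liver, so the tests measure the spread between these samples.

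Upstream sequences of the 4 genes that were called in any comparison (Mmp13, Mmp8, Mmp14 and Timp1), and of Mmp7 for its shared motif, are given to show how the letters before their starts differ. They are the 250 bases before the RefSeq start on GRCm38.p6, read 5′ to 3′ on the plus strand, which is the strand of all 5 genes. Capitals mark the AP-1 motif TGANTCA and the TATA motif TATAAA. The regions are chr9:7272264-7272513 for Mmp13, chr9:7691840-7692089 for Mmp7, chr9:7558179-7558428 for Mmp8, chr14:54431348-54431597 for Mmp14 and chrX:20869916-20870165 for Timp1.
Mmp13: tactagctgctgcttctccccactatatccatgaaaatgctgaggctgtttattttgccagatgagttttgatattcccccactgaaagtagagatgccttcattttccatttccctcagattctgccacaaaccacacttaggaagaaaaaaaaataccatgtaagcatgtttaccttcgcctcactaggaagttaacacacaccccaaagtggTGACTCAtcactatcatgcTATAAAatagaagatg
Mmp7: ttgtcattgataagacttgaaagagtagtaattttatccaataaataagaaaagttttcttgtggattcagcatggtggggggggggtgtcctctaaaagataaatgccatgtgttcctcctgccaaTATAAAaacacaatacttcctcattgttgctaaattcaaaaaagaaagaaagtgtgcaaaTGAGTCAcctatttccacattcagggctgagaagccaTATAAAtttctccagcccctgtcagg
Mmp8: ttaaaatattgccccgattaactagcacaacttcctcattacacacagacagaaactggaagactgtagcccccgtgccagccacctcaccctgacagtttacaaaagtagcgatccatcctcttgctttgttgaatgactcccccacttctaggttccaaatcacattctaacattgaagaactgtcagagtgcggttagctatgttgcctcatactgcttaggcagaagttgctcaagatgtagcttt
Mmp14: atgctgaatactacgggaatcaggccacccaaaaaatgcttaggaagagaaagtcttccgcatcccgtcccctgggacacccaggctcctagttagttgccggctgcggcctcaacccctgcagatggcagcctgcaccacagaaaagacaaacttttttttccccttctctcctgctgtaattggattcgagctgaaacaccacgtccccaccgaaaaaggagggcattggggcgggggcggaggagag
Timp1: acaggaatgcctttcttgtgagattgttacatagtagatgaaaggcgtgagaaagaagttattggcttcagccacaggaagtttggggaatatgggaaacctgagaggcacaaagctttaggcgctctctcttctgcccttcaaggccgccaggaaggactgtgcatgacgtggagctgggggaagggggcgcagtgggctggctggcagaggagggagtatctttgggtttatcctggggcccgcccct
Motifs were searched on both strands of the 8 members that had an entry. AP-1 letters were in 2 of the 8, Mmp13 (35 to 29 bases before the start) and Mmp7 (63 to 57 bases before it), and in 6.75% of 32841 upstream regions of the same length. TATAAA was in Mmp13, Mmp7 and Adamts1 and in 12.4% of all regions. The ETS motif AGGAAG was in 6 of the 8 and in 29.5% of all regions, and the GC box GGGCGG was in 5 of the 8 and in 32.7%. The RUNX motif AACCACA was in 1 of the 8, Mmp13, and in 4.4% of all regions. Mmp7 has another listed start, whose upstream region was not used here. None of the motifs overlapped another in the regions printed. A match is a run of letters and not a measured binding site.

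Library totals ranged from 21530083 to 38074411 expected counts (median 27610432). The summed level of 8 hepatocyte markers was 45450 to 75520 TPM (transcript share corrected for length) in the 19 liver libraries and 115800 to 140700 TPM in 5 tumors, but 33090 TPM in DEN-T-WD replicate 5. DEN-PT-WD replicate 7 had the lowest sum of the livers. Albumin (Alb) was the largest part of the sum, with 80150 ± 29450 TPM in DEN-T-WD (n = 6) and 43660 ± 6253 TPM in nonDEN-L-WD (n = 4), so the sum does not stand for all 8 markers. Against nonDEN-L-WD, tumors had lower Cyp2e1 (log2 difference -2.14), Cps1 (-1.13) and Tat and higher Apoa1 (1.01), and the other 4 were not called. The 8 pancreas acinar markers summed to between 0.32 and 5292 TPM, with more than 1000 TPM in 6 libraries. Differences of the 10 genes that passed or lost a threshold without these libraries are given with and without them.

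Mmp14 and Timp3 were the most abundant of the 10 genes per unit of transcript length in all 5 groups. Mmp14 stood at 13.7 ± 3.01 TPM in nonDEN-L-CD (mean ± SD, n = 3) and 29.8 ± 5.56 TPM in DEN-T-WD (n = 6). Timp3 stood at 12.5 ± 0.615 and 29.2 ± 4.51 TPM in the same groups, and the ranges of Mmp14 and Timp3 overlapped in both. Timp2 (4.66 to 11.7 TPM as group means) and Adamts1 (4.39 to 7.53 TPM) came next, in that order in every group, with overlapping ranges except in DEN-L-CD.

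The remaining 6 genes had group means at or below 5.54 TPM, with single libraries of up to 10.7 TPM (Mmp13). Mmp13 was the lowest of all in nonDEN-L-CD at 0.217 ± 0.103 TPM and the 5th highest in DEN-T-WD at 5.54 ± 2.68 TPM. Timp1 went from 0.507 ± 0.296 to 3.96 ± 1.77 TPM between those groups. Mmp8 was the lowest of all in the other 4 groups, with means of 0.05 to 0.223 TPM. Mmp9 was at 0.355 to 0.633 TPM in every group, and its neighbours in the order mostly overlapped with it.

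**Figure D1:**
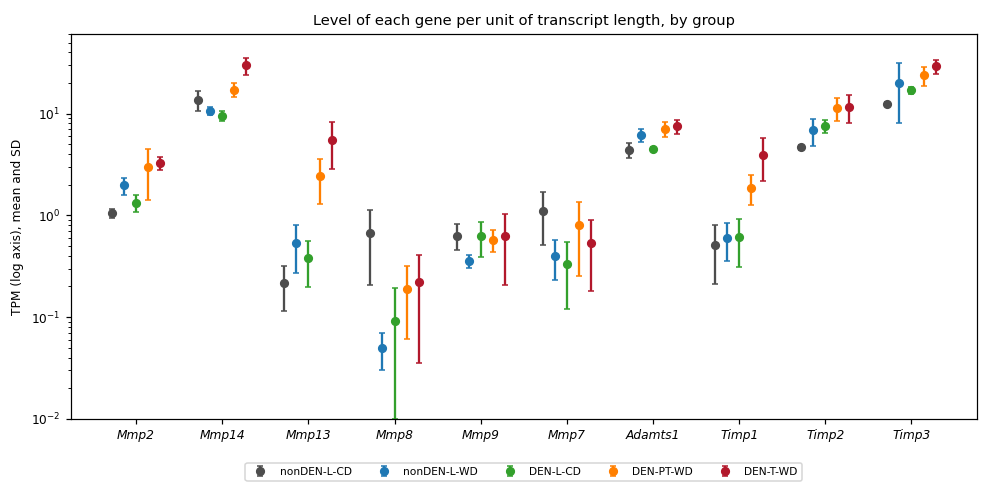
Level of each gene in TPM on a log axis, as mean and SD over the libraries of each of the 5 groups (bars are cut off at 0.01 TPM). Mmp14 and Timp3 sit near or above 10 TPM throughout, while Mmp13 and Timp1 are near or below 0.6 TPM in the 3 groups without separated tumors and highest in DEN-T-WD.

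The 3 inhibitors together ran from 13.9 to 57.2 TPM and the 6 metalloproteinases together from 11.4 to 44.3 TPM over all libraries. The ratio of summed inhibitor TPM to summed metalloproteinase TPM had a median of 0.994 in nonDEN-L-CD (range 0.886 to 1.26), 1.72 in nonDEN-L-WD (1.16 to 3.1) and 2.13 in DEN-L-CD (1.74 to 2.3). It was 1.48 in DEN-PT-WD (1.25 to 1.95) and 1.08 in DEN-T-WD (0.807 to 1.53). The ratios of nonDEN-L-CD and DEN-L-CD did not overlap, and those of the other groups overlapped with at least 1 of them. Mmp14 made up 53.5% to 81.3% of the metalloproteinase sum in any library and Timp3 59.9% to 82.3% of the inhibitor sum, so these ratios follow both genes closely.

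Between groups, genes were compared on normalised counts, that is, read counts scaled to a common library size, with edgeR's quasi-likelihood test and Benjamini-Hochberg adjustment over 15625 genes. A gene was called at an adjusted p of at most 0.05 and a change of at least 1 on the log2 scale. The contrast of tumor with untreated western-diet liver called 3 of the 10 members, all higher, against 15.7% of all genes tested (10.4% higher, 5.24% lower), while 49.0% of all genes passed the adjusted p alone. Peritumoral liver against nonDEN-L-WD called 2 of 10 members, both higher (2.76% of all genes, 2.36% higher and 0.41% lower, with 12.4% passing the adjusted p alone). Peritumoral liver against DEN-L-CD also called 2 of 10, both higher (1.9% of all genes, 1.52% higher and 0.378% lower, with 10.6% passing the adjusted p alone). Tumor against peritumoral liver called 1 of 10, higher (7.9% of all genes, 4.81% higher and 3.09% lower, with 37.7% passing the adjusted p alone). Western against control diet in untreated mice called 1 of 10, lower (5.28% of all genes, 3.24% higher and 2.04% lower, with 23.2% passing the adjusted p alone). DEN on control diet called 1 of 10, lower (4.7% of all genes, 2.76% higher and 1.93% lower, with 21.3% passing the adjusted p alone). The difference between the DEN effects on each diet called 1 of 10, higher (2.75% of all genes, 1.57% higher and 1.18% lower, with 8.39% passing the adjusted p alone). The median log2 difference of the 10 members was 0.60 for peritumoral liver against nonDEN-L-WD, 0.45 for tumor against nonDEN-L-WD and 0.04 for tumor against peritumoral liver, whereas the medians of all genes tested lay between 0.00278 and 0.0275 in the 7 contrasts. It was 0.21 for western against control diet, 0.12 for DEN on control diet, 0.59 for peritumoral liver against DEN-L-CD and 0.83 for the difference between the DEN effects.

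**Figure D2:**
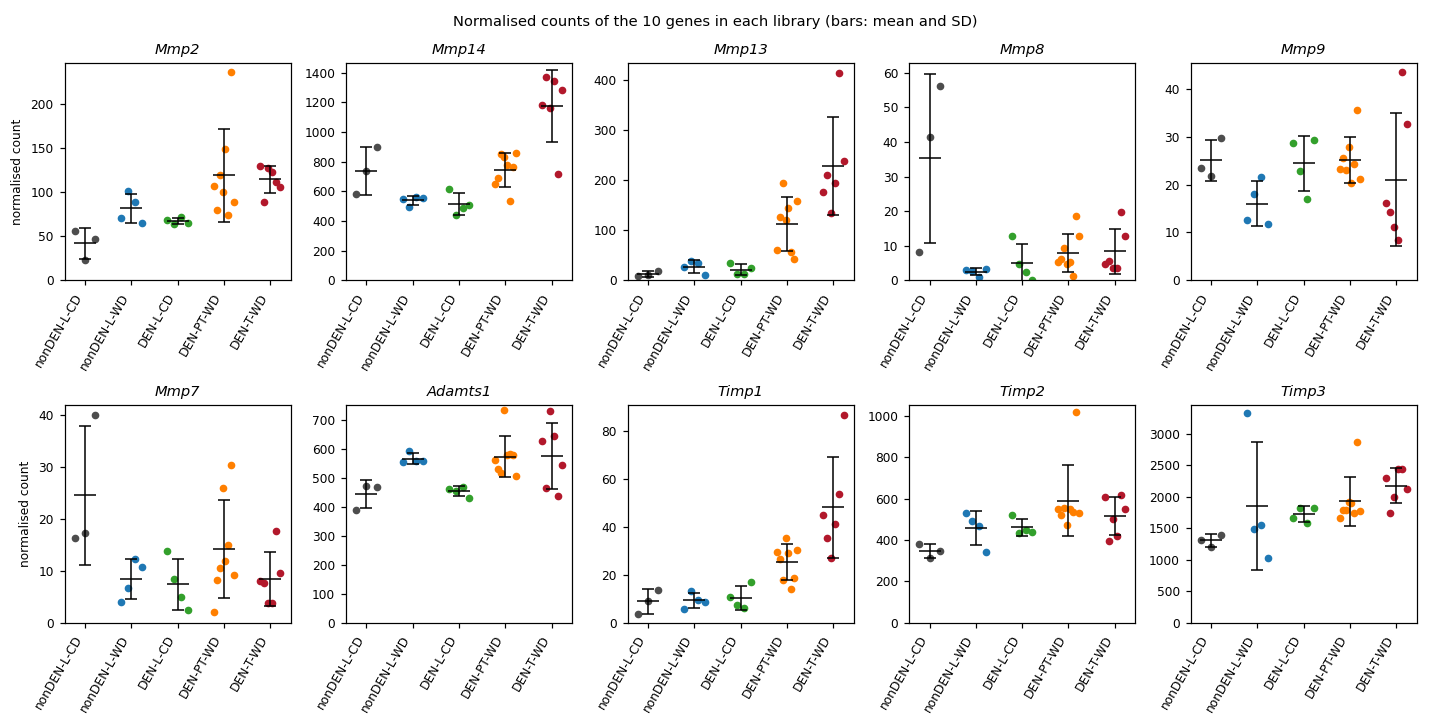
Normalised counts of the 10 genes in each library, 1 point per library, with the mean and SD of each group (bars are cut off at 0). Mmp13, Mmp14 and Timp1 are highest in DEN-T-WD, Mmp8 is highest in 2 of the 3 nonDEN-L-CD libraries, and 1 DEN-PT-WD library is highest for Mmp2 and Timp2 and 1 nonDEN-L-WD library for Timp3.

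Mmp13, a collagenase, rose in peritumoral liver and tumors. It had 8.19, 10.3 and 19.5 normalised counts in the 3 nonDEN-L-CD libraries and 27.3, 37.8, 35.0 and 10.7 in the 4 nonDEN-L-WD libraries. In DEN-L-CD it had 35.0, 12.0, 13.3 and 25.6. DEN-PT-WD libraries ran from 43.0 to 194 with a median of 123, and DEN-T-WD libraries from 135 to 413 with a median of 202. All 14 libraries from DEN-injected western-diet mice were above all 11 others.

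Peritumoral liver had 2.02 ± 0.43 (log2 difference ± SE) more Mmp13 than nonDEN-L-WD (adjusted p = 0.00575) and 2.38 ± 0.45 more than DEN-L-CD (adjusted p = 0.00318). Tumors were 3.03 ± 0.46 above nonDEN-L-WD (adjusted p = 1.18e-05), an 8.18-fold difference. These calls were also made when DEN-T-WD replicate 5 and DEN-PT-WD replicate 7 were left out, with log2 differences of 2.14, 2.50 and 2.77 and edgeR adjusted p of 0.00122, 0.000664 and 5.11e-06. Between untreated diets Mmp13 was 1.13 ± 0.59 higher on western diet, which missed the threshold (adjusted p = 0.179), and DEN on control diet differed by 0.77 ± 0.61 (adjusted p = 0.395).

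Tumors had 1.01 ± 0.32 more Mmp13 on the log2 scale than peritumoral liver (adjusted p = 0.0161), with overlapping libraries. That value lay at the threshold and was lost when single libraries were left out. It was 0.92 without DEN-PT-WD replicate 1, 0.92 without replicate 6, 0.89 without replicate 7 and 0.76 without DEN-T-WD replicate 5, the tumor with 413 counts (edgeR adjusted p = 0.0589 in the last case). Without both low-hepatocyte libraries it was 0.63 (edgeR adjusted p = 0.0917), and without the 6 libraries with high pancreas markers 0.78 (0.123).

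Markers of recruited macrophages were called in 3 of the 4 contrasts in which Mmp13 was. The 8 markers, 1 of which is Mmp12, summed to 81.5 to 217 TPM in the 3 groups other than DEN-PT-WD and DEN-T-WD, to 162 to 376 TPM in DEN-PT-WD and to 249 to 557 TPM in DEN-T-WD. In tumors against nonDEN-L-WD 7 of the 8 rose, and in peritumoral liver 5 of 8 against nonDEN-L-WD and 6 of 8 against DEN-L-CD. DEN-T-WD replicate 5 was highest for both the sum and Mmp13, whereas DEN-PT-WD replicate 7 had the highest sum of its group and the lowest Mmp13. In tumors against peritumoral liver, where Mmp13 was called, 2 of the 8 markers, Cd9 (log2 difference 0.86) and Cx3cr1 (0.78), passed the adjusted p but not the fold threshold, and the median of the 8 was 0.39. Other lists also moved in that contrast. Of 8 resident macrophage markers 4 were called lower (median -0.96), and of 8 bile duct and progenitor markers 2 were called higher and 1 lower. In western against control diet 5 of the 8 recruited macrophage markers were also called higher, where Mmp13 was not. There 1 marker was lower at an adjusted p of at most 0.05, under the fold threshold. Mmp13 was also not called under DEN on control diet, where 2 of the 8 were called higher. For the difference between the DEN effects 1 of the 8 was called higher and Mmp13 was not called. The part of these cells in the Mmp13 values was not tested, and in whole tissue fewer or more cells of a type cannot be told apart from less or more RNA per cell.

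**Figure D3:**
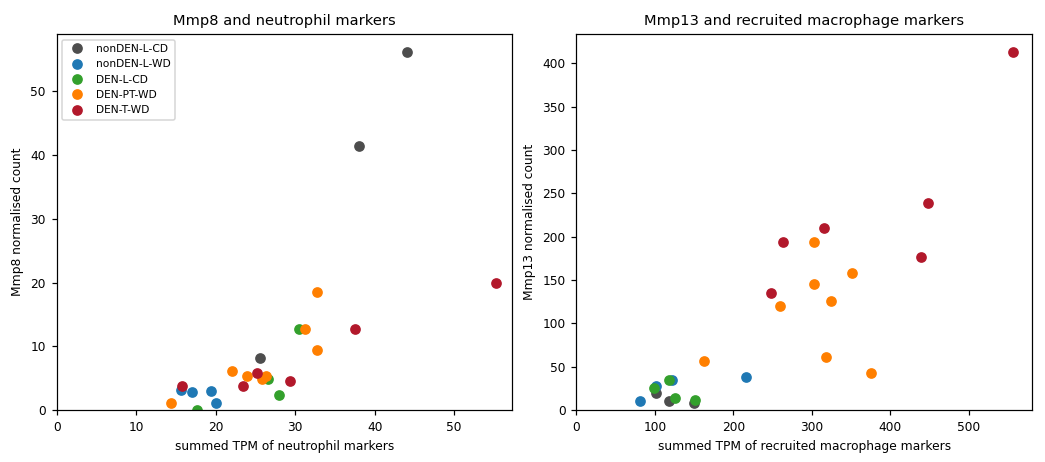
Normalised count of Mmp8 against the summed TPM of 12 neutrophil markers (left) and of Mmp13 against the summed TPM of 8 recruited macrophage markers (right), 1 point per library, coloured by group. The 2 libraries with over 40 Mmp8 counts are both nonDEN-L-CD, and all Mmp13 values of 43.0 counts or more come from DEN-PT-WD and DEN-T-WD.

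Mmp8, the collagenase that neutrophils store in granules, had its highest values in untreated liver on control diet. It had 8.19, 41.4 and 56.1 normalised counts in nonDEN-L-CD and 2.93, 2.84, 1.03 and 3.20 in nonDEN-L-WD, with no overlap. DEN-L-CD libraries had 12.7, 4.82, 2.43 and 0. DEN-PT-WD ran from 1.16 to 18.6 (median 5.76) and DEN-T-WD from 3.70 to 19.9 (median 5.17). Every library outside nonDEN-L-CD was therefore below nonDEN-L-CD replicates 2 and 3, and replicate 1 lay within the range of the DEN groups.

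On western diet Mmp8 fell by 3.75 ± 0.84 on the log2 scale in untreated mice (adjusted p = 0.00284). Each nonDEN-L-WD library held at most 3 reads, so the summed counts, 92 against 10, are given beside the fit. The 92 reads were 7, 36 and 49 in the 3 nonDEN-L-CD libraries, and the summed counts leave out that spread. The nonDEN-L-CD level was 14.1 times the nonDEN-L-WD level, with a 95% exact interval of 7.35 to 30.5 that covers counting error only. Under DEN on control diet Mmp8 fell by 2.75 ± 0.78 (adjusted p = 0.0149), but without nonDEN-L-CD replicate 2 the value was -2.62 (edgeR adjusted p = 0.0563) and without replicate 3 it was -2.25 (0.0846). Without the 6 libraries with high pancreas markers it was -2.53 (edgeR adjusted p = 0.0551). With any 1 library left out the value lay between -3.80 and -2.25, the lowest without DEN-L-CD replicate 1. Both contrasts share the 3 nonDEN-L-CD libraries, so they are not independent of each other. In DEN-T-WD and DEN-PT-WD Mmp8 was 1.73 ± 0.79 and 1.65 ± 0.77 above nonDEN-L-WD, which missed the threshold (adjusted p = 0.0725 and 0.152), although tumors and nonDEN-L-WD did not overlap.

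Neutrophil markers were called in the 3 contrasts in which Mmp8 was (western diet, DEN on control diet and the difference between the DEN effects on both diets) and in 1 where it was not. The 12 markers summed to 25.6 to 44.0 TPM in nonDEN-L-CD, lowest in replicate 1, and to 15.6 to 20.1 TPM in nonDEN-L-WD. The sums were 17.7 to 30.5 TPM in DEN-L-CD, 14.4 to 32.8 TPM in DEN-PT-WD and 15.8 to 55.2 TPM in DEN-T-WD. On western diet 4 of the 8 markers that could be tested fell, namely Retnlg, S100a8, Cxcr2 and S100a9, and the median log2 difference of the 8 was -1.73. Under DEN on control diet Retnlg and Cxcr2 fell, and the median of the 8 was -0.55. The rest of the 8 did not pass the adjusted p in either contrast. Not all of the 12 markers had lower means. Csf3r stood at 0.983 TPM in nonDEN-L-CD, 1.19 TPM in nonDEN-L-WD and 1.36 TPM in DEN-L-CD, with overlapping ranges. For the difference between DEN effects Retnlg was called higher (3.04), and the median of the 8 was 1.40 against 0.028 over all genes tested. In tumors against nonDEN-L-WD, where Mmp8 was not called, Ngp, S100a8, S100a9 and Cxcr2 rose, and the median log2 difference of the 8 was 1.04 against 0.019 over all genes tested. Ly6g and Camp, which mark mature and maturing neutrophils, were listed at 0 in most libraries. The part of neutrophils in the Mmp8 values was not tested.

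Lcn2, an acute-phase protein that also binds Mmp9, had the same split among controls. It stood at 9.84 TPM in nonDEN-L-CD replicate 1, 226 TPM in replicate 2 and 315 TPM in replicate 3. In nonDEN-L-WD it ran from 14.6 to 27.6 TPM and in DEN-L-CD from 6.11 to 94.0 TPM. Lcn2 fell by 3.11 ± 0.90 on the log2 scale on western diet (adjusted p = 0.0152) and rose by 4.59 ± 0.90 in tumors against nonDEN-L-WD (adjusted p = 0.000233), where Mmp8 was not called.

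Mmp14, the membrane-anchored activator of pro-Mmp2, rose in tumors. Its normalised counts were 580, 736 and 903 in nonDEN-L-CD. The nonDEN-L-WD livers held 552, 494, 561 and 554. The DEN-L-CD livers held 617, 443, 488 and 509. Counts ran from 536 to 861 in DEN-PT-WD (median 771) and from 717.5 to 1369 in DEN-T-WD (median 1233). All 6 tumors were above all 4 nonDEN-L-WD libraries, and 5 of 6 were above every peritumoral library. The exception was DEN-T-WD replicate 5, the tumor with the lowest sum of hepatocyte markers.

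Tumor Mmp14 was 1.12 ± 0.16 (log2) above nonDEN-L-WD (adjusted p = 5.63e-06), a 2.18-fold difference, and was called in all 17 alternative settings of that contrast. Against peritumoral liver it was 0.66 ± 0.13 higher, below the fold threshold but with an adjusted p of 0.00032 from edgeR. Without the 2 low-hepatocyte libraries this was 0.77 (edgeR adjusted p = 1.33e-05), and without the 6 high-pancreas libraries 0.50 (0.0225). Peritumoral liver was 0.46 ± 0.15 above nonDEN-L-WD (adjusted p = 0.0433) and 0.53 ± 0.15 above DEN-L-CD (adjusted p = 0.0258). DEN on control diet gave -0.52 ± 0.18 against nonDEN-L-CD (adjusted p = 0.0435), and -0.50 (edgeR adjusted p = 0.0874) without the high-pancreas libraries. These 3 differences passed the adjusted p but not the fold threshold, and over the alternative settings the adjusted p was passed in 8 of 19 (0.0149 to 0.103), 15 of 19 (0.00724 to 0.0869) and 5 of 13 (0.0152 to 0.245).

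Of the gelatinases, Mmp2 was lowest in untreated liver on control diet. It had 56.1, 23.0 and 47.0 normalised counts in nonDEN-L-CD and 71.2, 101, 89.7 and 65.0 in nonDEN-L-WD. DEN-L-CD had 68.9, 63.9, 71.6 and 64.7. DEN-PT-WD ran from 74.1 to 236 (median 104) and DEN-T-WD from 88.8 to 130 (median 117). No nonDEN-L-CD library reached the lowest library of any other group.

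Mmp2 was 0.96 ± 0.33 (log2) higher on western than on control diet in untreated mice (adjusted p = 0.0376), just below the fold threshold. Leaving out nonDEN-L-CD replicate 1 moved it to 1.20 (edgeR adjusted p = 0.0257), nonDEN-L-WD replicate 1 to 1.02 (0.0486), nonDEN-L-WD replicate 4 to 1.05 (0.0303) and the high-pancreas libraries to 1.05 (0.0326). Without nonDEN-L-CD replicate 2 it was 0.67 (edgeR adjusted p = 0.22). Over its 13 alternative settings the adjusted p was passed in 6 (0.0227 to 0.22), and the difference was called in 4. Peritumoral liver was 0.83 ± 0.26 above DEN-L-CD (adjusted p = 0.0419), and this reached 1.07 (edgeR adjusted p = 0.0335) without the 6 high-pancreas libraries, which passes both thresholds. Over 19 alternative settings that adjusted p was passed in 10 (0.0188 to 0.102). Tumor and peritumoral liver differed by -0.06 ± 0.22 (adjusted p = 0.848). The effective length that RSEM assigned to Mmp2 ranged from 1155 to 3005 bases between libraries (1108 to 3102 for Mmp9), and TPM is scaled by that length while normalised counts are not.

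Mmp9, the gelatinase of neutrophils and macrophages, was called in none of the 7 contrasts, nor did it pass the adjusted p in any alternative setting. Its counts were 21.9 to 29.8 in nonDEN-L-CD, 11.7 to 21.6 in nonDEN-L-WD and 16.99 to 29.3 in DEN-L-CD. They were 20.4 to 35.5 in DEN-PT-WD. Tumors spread the most, from 8.40 to 43.5, with the 2 highest values, 43.5 and 32.6, in replicates 5 and 6. Those 2 tumors also had the highest Mmp8 (19.9 and 12.7) and the highest neutrophil marker sums (55.2 and 37.5 TPM) of the tumors.

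Mmp7, the matrilysin of bile duct and other epithelia, was also not called. It had 16.4, 17.2 and 40.1 normalised counts in nonDEN-L-CD, 3.90 to 12.4 in nonDEN-L-WD, 2.44 to 13.8 in DEN-L-CD, 2.10 to 30.4 in DEN-PT-WD and 3.70 to 17.7 in DEN-T-WD. The 3 control libraries were above all libraries of nonDEN-L-WD and DEN-L-CD, with log2 differences of -1.54 ± 0.64 (adjusted p = 0.0836) and -1.70 ± 0.65 (adjusted p = 0.0659). Without DEN-L-CD replicate 1 the latter became -2.20 and was called (edgeR adjusted p = 0.0411). Of its exonic bases 123 (11.5%) lie under exons of the antisense gene AV064505, and the counting is not stated to use strand, so reads there cannot be assigned to 1 gene.

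Adamts1, the proteoglycan-cleaving member, was called in no contrast. It had 388 to 471 normalised counts in nonDEN-L-CD and 431 to 469 in DEN-L-CD, against 555 to 593 in nonDEN-L-WD, 505 to 733 in DEN-PT-WD and 437 to 731 in DEN-T-WD. Every peritumoral library and every nonDEN-L-WD library was above every control-diet library. The differences were 0.34 ± 0.11 (log2) for peritumoral liver against DEN-L-CD (adjusted p = 0.0555, and 0.032 by edgeR at 0.33 without the 2 low-hepatocyte libraries) and 0.35 ± 0.14 for western against control diet in untreated mice (adjusted p = 0.0673). Tumors and peritumoral liver differed by 0.0045 ± 0.097 (adjusted p = 0.977).

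Timp1, the inducible inhibitor, was higher in peritumoral liver and tumors. Its counts were low in liver without separated tumors, with 3.51, 9.20 and 13.7 in nonDEN-L-CD. The nonDEN-L-WD livers held 5.85, 13.2, 9.28 and 8.52. The DEN-L-CD livers held 10.6, 7.23, 6.07 and 17.1. DEN-PT-WD libraries ran from 13.9 to 35.5 (median 27.8) and DEN-T-WD libraries from 26.9 to 86.7 (median 43.0). Peritumoral libraries did not overlap with nonDEN-L-WD but overlapped with DEN-L-CD and with tumors.

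Timp1 was 2.37 ± 0.38 (log2) higher in tumors than in nonDEN-L-WD (adjusted p = 2.83e-05), a 5.17-fold difference. In peritumoral liver it was 1.44 ± 0.37 above nonDEN-L-WD (adjusted p = 0.0154), and without nonDEN-L-WD replicate 1 or 4 the values were 1.27 (edgeR adjusted p = 0.0591) and 1.40 (0.0581). Against DEN-L-CD it was 1.29 ± 0.37 higher (adjusted p = 0.0288). That call was lost without DEN-L-CD replicate 1 (1.31, edgeR adjusted p = 0.072), replicate 2 (1.16, 0.0878) or replicate 3 (1.11, 0.104), and without DEN-PT-WD replicate 4 (1.20, 0.0508) or the 6 libraries with high pancreas markers (1.17, 0.0758). Tumor against peritumoral liver gave 0.93 ± 0.28 (adjusted p = 0.0112), below the fold threshold. It passed both thresholds without DEN-PT-WD replicate 4 (1.02, edgeR adjusted p = 0.00848), DEN-T-WD replicate 2 (1.01, 0.011) or DEN-T-WD replicate 3 (1.05, 0.00572), and was 0.62 (edgeR adjusted p = 0.16) without the 6 libraries with high pancreas markers. Over the 25 libraries Timp1 and Mmp13 had a Pearson r of 0.896 on log2 CPM, and 0.513 for deviations from their group means.

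Markers of several cell types differed in the contrast of tumors with nonDEN-L-WD in which Timp1 and Mmp14 were called. Besides the recruited macrophage and neutrophil markers given above, the bile duct and progenitor genes Prom1 (log2 difference 3.77) and Sox9 (2.11) rose, 2 of the 8 on that list, whose sum was 10.6 to 16.4 TPM in nonDEN-L-WD and 20.8 to 46.2 TPM in DEN-T-WD. The median log2 difference of these 8 was 0.41. The stellate cell and myofibroblast sum did not overlap, with 58.4 to 93.9 TPM in nonDEN-L-WD, 103 to 136 TPM in DEN-T-WD and 103 to 151 TPM in DEN-PT-WD, and Acta2 (1.10) was the 1 of its 10 markers that was called. On normalised counts the median log2 difference of the 10 was only 0.14, with 3 higher at an adjusted p of at most 0.05. In tumors against peritumoral liver that median was -0.20, with 1 higher and 5 lower at that adjusted p. The sum of 9 endothelial markers was also apart, at 111 to 182 TPM in nonDEN-L-WD and 192 to 227 TPM in DEN-T-WD, and Lyve1 (1.17) was called. Their median log2 difference on normalised counts was only 0.18, with 4 higher and 1 lower at an adjusted p of at most 0.05. Of the 8 resident macrophage markers Cd163 (-2.35), Marco (-2.06) and Timd4 (-1.76) fell. The resident macrophage sums overlapped, with 158 to 254 TPM in nonDEN-L-WD, 197 to 457 TPM in DEN-PT-WD and 158 to 282 TPM in DEN-T-WD. The sum of 6 adipocyte and mesothelium markers was 127 to 151 TPM in nonDEN-L-WD and 370 to 438 TPM in DEN-T-WD. Their median log2 difference went the other way, at -1.46, with 1 called higher and 1 lower. Of the 8 T and B cell markers 1 was called higher. The part of these cells in the Timp1 and Mmp14 values was not tested.

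Timp2, which bridges Mmp14 and pro-Mmp2, was not called in any contrast. It had 377.8, 310.5 and 346 normalised counts in nonDEN-L-CD and values between 341 and 530 in nonDEN-L-WD. DEN-L-CD libraries had 433 to 521. DEN-PT-WD ran from 472 to 1017 with a median of 542, and DEN-T-WD from 393.5 to 618 with a median of 525.9. The largest of its log2 differences were 0.42 ± 0.21 for DEN on control diet (adjusted p = 0.167) and 0.41 ± 0.21 for western against control diet (also 0.167). Its mean TPM went from 4.66 to 11.7 between nonDEN-L-CD and DEN-T-WD while its mean normalised count went from 345 to 515. Its effective length ranged from 2316 to 3636 bases between libraries. Timp3 had a nearly constant effective length (4582 to 4649 bases), and its mean TPM likewise went from 12.5 to 29.2 while its mean normalised count went from 1304 to 2174, so the 2 scales part between these groups also where length does not change. The cause was not tested.

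Timp3, the matrix-bound inhibitor, was not called either. Libraries had 1202 to 1394 normalised counts in nonDEN-L-CD, 1577 to 1827 in DEN-L-CD, 1662 to 2869 in DEN-PT-WD and 1743 to 2445 in DEN-T-WD. The 4 nonDEN-L-WD libraries had 3328, 1491, 1550 and 1031. With nonDEN-L-WD replicate 1 in the fit, tumors were 0.23 ± 0.21 (log2) above that group (adjusted p = 0.374), and without it the difference was 0.68 (edgeR adjusted p = 0.00114). Peritumoral liver was 0.06 above nonDEN-L-WD with that library (adjusted p = 0.872) and 0.51 above it without (edgeR adjusted p = 0.0412). The same library took the difference between untreated diets from 0.06 without it to 0.50 ± 0.25 with it (adjusted p = 0.15), and without the high-pancreas libraries this difference was 0.70 (edgeR adjusted p = 0.0496). Exons of Syn3 on the opposite strand cover 1733 exonic bases of Timp3 (21.3%), where reads cannot be assigned without strand.

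DEN-PT-WD replicate 7 was the highest peritumoral library for Mmp2 (236), Timp2 (1017), Timp3 (2869), Mmp9 (35.5), Mmp8 (18.6) and Mmp7 (30.4), and the lowest for Mmp13 (43.0). It had the largest sum of the 10 stellate cell and myofibroblast markers of all libraries, 151 TPM, where the peritumoral median was 111 TPM. Its part in the group means was not tested beyond leaving the library out.

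**Figure D4:**
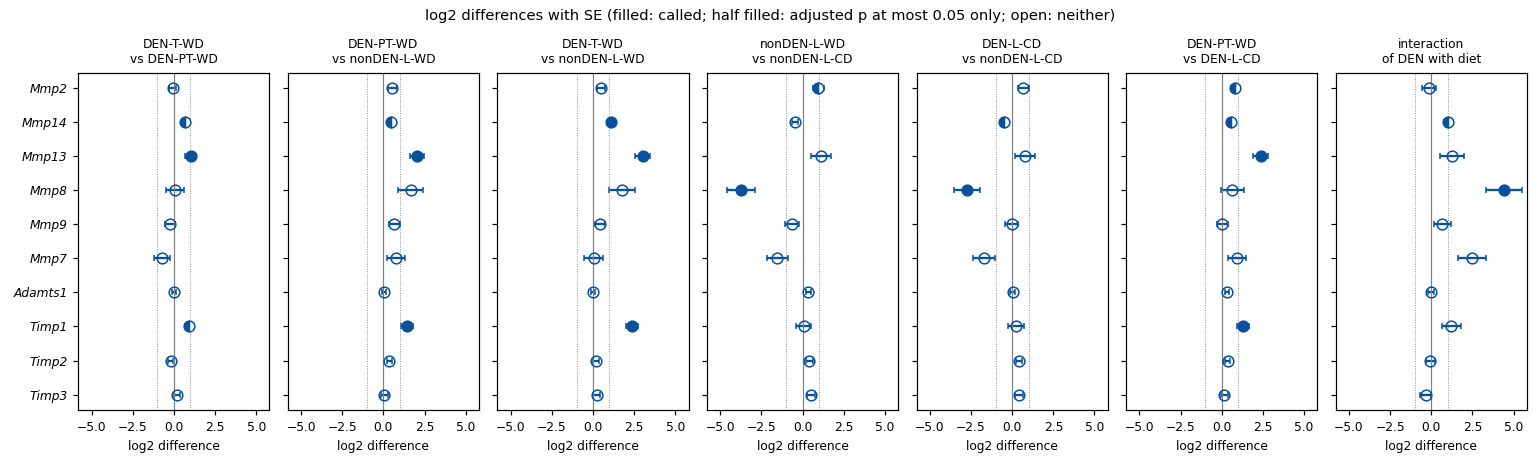
Log2 differences of the 10 genes in 7 contrasts, with SE from the edgeR fit. Filled points passed both thresholds, half-filled ones the adjusted p only, and dotted lines mark a log2 difference of 1. Mmp13 is filled in 4 contrasts and Timp1 in 3, and Mmp8 is filled on the negative side in both contrasts with nonDEN-L-CD.

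Whether the DEN effect differed between diets was tested as the peritumoral minus nonDEN-L-WD difference less the DEN-L-CD minus nonDEN-L-CD difference. Mmp8 gave 4.40 ± 1.10 (adjusted p = 0.0157), from a DEN effect of -2.75 on control diet and 1.65 on western diet. Without nonDEN-L-CD replicate 3 it was 3.90 (edgeR adjusted p = 0.057), and with any 1 library left out it lay between 3.90 and 5.45, the highest without DEN-L-CD replicate 1. Mmp14 gave 0.988 ± 0.24 (adjusted p = 0.0119), just under the fold threshold, and reached or passed it in 9 of 26 alternative settings. Those settings left out nonDEN-L-CD replicate 1 (1.14), nonDEN-L-WD replicate 3 (1.01) or 4 (1.00), DEN-L-CD replicate 1 (1.09), DEN-PT-WD replicate 1 (1.01), 2 (1.00) or 6 (1.04), or the libraries with high pancreas markers (1.11), or used the replicate number as a block, under which Mmp8 was not called. Mmp7 gave 2.46 ± 0.85 (adjusted p = 0.0733), and was called without DEN-PT-WD replicate 1 (2.62, edgeR adjusted p = 0.0384) and by DESeq2 (2.48, adjusted p = 0.0484). Mmp13 and Timp1 gave 1.25 ± 0.75 and 1.22 ± 0.60 (adjusted p = 0.316 and 0.217), so a difference in their DEN effect between diets was not shown. DEN-PT-WD is tissue beside tumors while DEN-L-CD is whole liver, so the contrast holds that difference as well.

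Mmp7, Mmp8 and Mmp13 lie in 1 cluster of 10 metalloproteinase genes on chromosome 9, between positions 7272514 and 7699585 of GRCm38. Mmp13 (7272514 to 7283331) is at 1 end, Mmp8 (7558456 to 7568485) is inside and Mmp7 (7692090 to 7699585) is at the other end, all on the plus strand. The others are Mmp12, Mmp1b, Mmp3, Mmp1a, Mmp10, Mmp27 and Mmp20, of which Mmp12, Mmp3 and Mmp27 could be tested. Mmp12, the macrophage elastase next to Mmp13, was 3.50 ± 0.65 (log2) higher on western than on control diet in untreated mice (adjusted p = 0.00063), from 0.417 to 5.79 TPM as means. It rose further in peritumoral liver, to 26.1 TPM, by 2.02 ± 0.42 against nonDEN-L-WD (adjusted p = 0.00467). The tumor mean was 34.0 TPM, 0.26 ± 0.32 above peritumoral liver (adjusted p = 0.564). Mmp27 was 1.65 ± 0.50 higher in tumors than in nonDEN-L-WD (adjusted p = 0.00916). Mmp3 was called in none of the 7 contrasts. Calls within the cluster thus went in opposite directions in the same contrast, with Mmp12 higher and Mmp8 lower both on western diet and under DEN on control diet.

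**Figure D5:**
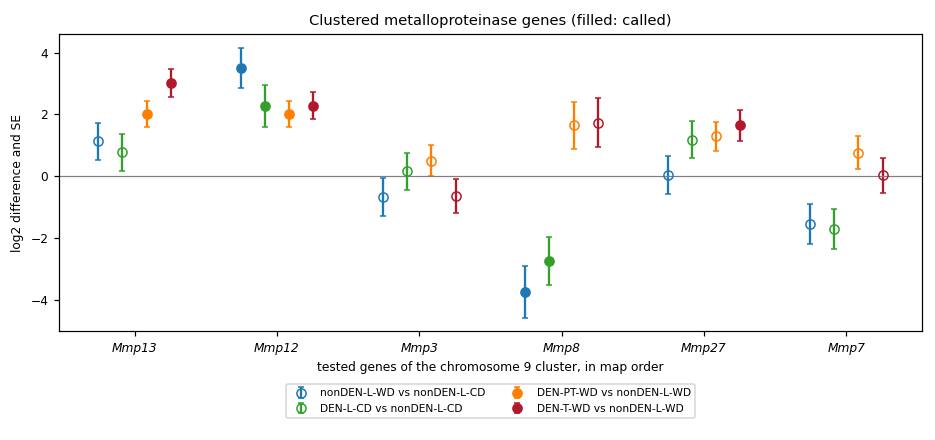
Log2 differences with SE of the 6 tested genes of the chromosome 9 cluster in map order, for 4 contrasts; filled points were called. Mmp12 is filled above 0 in all 4 contrasts and Mmp8 below 0 in 2 of them.

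The other members lie on separate chromosomes. Mmp2 is on chromosome 8 (92827291 to 92853420), Mmp9 on chromosome 2 (164940780 to 164955850), Mmp14 on chromosome 14 (54431612 to 54445364) and Adamts1 on chromosome 16 (85793827 to 85803113). Timp1 is on chromosome X (20870166 to 20874735) inside an intron of Syn1 on the opposite strand, without shared exonic bases. Timp2 is on chromosome 11 (118301069 to 118355740) and Timp3 on chromosome 10 (86300372 to 86349506).

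Of the 18 other MMP and TIMP genes, 10 could be tested. Besides Mmp12 and Mmp27, those called were Mmp24 in tumors against nonDEN-L-WD and Mmp28 on western diet, both below 1 TPM. Between tumor and peritumoral liver 1 was higher and 1 lower at an adjusted p of at most 0.05, both under the fold threshold. Of the 18 other ADAMTS genes, 12 could be tested. In tumors against nonDEN-L-WD 5 rose, with a median over the 12 of 0.62 on the log2 scale. Adamts14, a procollagen N-propeptidase, led with 3.46 ± 0.51 (adjusted p = 9.14e-06) and Adamts9 followed among genes of at least 1 TPM with 1.15 ± 0.18 (adjusted p = 1.81e-05). Between tumor and peritumoral liver Adamts14 was 2.19 ± 0.36 higher and Adamts13, the von Willebrand factor protease, 1.03 ± 0.15 lower, among 2 called higher and 1 called lower. On western diet 2 rose, Adamts7 (1.27 ± 0.27) and Adamts5. Peritumoral liver had 1 called against nonDEN-L-WD and 3 against DEN-L-CD, DEN on control diet had 1, and the DEN effects differed for 1.

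Of the 18 genes for activation and for other inhibitors, all were tested. Tumors against nonDEN-L-WD had 6 higher and 2 lower, with a list median of 0.34. Plat, the tissue plasminogen activator, rose by 2.11 ± 0.25 (adjusted p = 7.28e-07). Serpine2, a serine protease inhibitor, fell by 1.80 ± 0.27 (adjusted p = 9.23e-06). Tumors against peritumoral liver had 4 higher, with Plat at 1.46 ± 0.19. On western diet Plau, the urokinase, was 1.75 ± 0.39 higher (adjusted p = 0.00301) and Lcn2 was the 1 called lower. Peritumoral liver had 2 higher against nonDEN-L-WD, Lcn2 and the collagen-degrading cathepsin Ctsk (1.10 ± 0.26), and 2 higher against DEN-L-CD, Plat and Ctsk. DEN on control diet had 1 lower and the DEN effects differed for 1, Lcn2 in both.

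The matrix proteins on which these enzymes act were mostly higher in tumors. Of 23 substrates, all tested, 12 rose in tumors against nonDEN-L-WD, with a median of 1.11 on the log2 scale. The largest called changes were in Spp1 (osteopontin, 3.43 ± 0.38), Nid1 (a basement membrane linker, 3.30 ± 0.40), Col5a2 (2.20 ± 0.31) and Col1a1 (1.81 ± 0.29). Against peritumoral liver 4 rose in tumors, Spp1 (1.97 ± 0.27), Nid1 (1.81 ± 0.29), Col4a2 (1.13 ± 0.12) and Col4a1 (1.08 ± 0.15), of which the last 3 are basement membrane components. In each of these tumor contrasts 1 substrate was lower at an adjusted p of at most 0.05, under the fold threshold. Peritumoral liver had 4 higher against nonDEN-L-WD and 7 against DEN-L-CD, with Col5a2 at 1.37 ± 0.29 and 1.70 ± 0.30. On western diet the fibrillar collagens Col3a1 (1.39 ± 0.27), Col1a1 (1.26 ± 0.34) and Col1a2 were higher. Under DEN on control diet 2 were higher and 1 lower at an adjusted p of at most 0.05, all under the fold threshold. The DEN effects differed for Col4a1. The same background shares apply to these lists as to the 10 members.

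Genes with the most similar levels to each member were ranked by Pearson r of log2 CPM over all 25 libraries, which share groups. For Mmp13 they were the matrix glycoprotein Tnc (r = 0.963, Spearman rho = 0.959), S100a11 (0.959, 0.968) and Acot9 (0.954, 0.957). For Mmp14 they were Pld1 (0.949, 0.944), L3mbtl3 (0.947, 0.898) and Myh9 (0.941, 0.923). For Timp1 they were Tpm3 (0.92, 0.944), Eid1 (0.916, 0.918) and Ehd4 (0.916, 0.906). Mmp2 ran with Ltbp3, a binding protein of latent TGF-beta (0.945, 0.93), and with Fkbp10 and Itga8. Timp2 ran with the matrix-linked genes Antxr1 (0.909, 0.851), Olfml3 and Bgn. Mmp8 ran with Alpk1 (0.917, 0.882), Ptpn1 and Map3k8. The highest r was lower for Timp3 (0.82, Oxct1, then Trpv4 and Tinag), Adamts1 (0.789, Patj, then Pbrm1), Mmp9 (0.764, Hspd1-ps3, then Cd300lf and Neu3) and Mmp7 (0.723, Slc10a6, then Ttll3 and Ggt6). Among the members themselves the closest pairs after Mmp13 and Timp1 were Mmp2 and Timp2 (r = 0.807), Mmp14 and Timp1 (0.744) and Timp2 and Timp3 (0.71). For deviations from the group means these 3 pairs had r of 0.674, 0.275 and 0.643.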

How the data were processed

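Total RNA was prepared as poly(A) libraries (KAPA mRNA HyperPrep) and sequenced as single reads. Per the labels and the study's methods, the authors checked reads with FastQC, aligned them with STAR and estimated expression with RSEM on GRCm38; further settings, the annotation release and the use of strand are not given in the sources used here. The deposited files, 1 per sample, hold expected counts (estimated counts per gene), TPM and FPKM values computed by the authors. TPM was used for levels between genes, FPKM only as a check of their order, and expected counts, rounded to whole numbers, for tests.

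Gene IDs were matched to symbols with the GRCm38 tables (48349 of 48795). Genes were filtered with filterByExpr (minimum count 10), scaled by TMM and fitted with edgeR 4.0.16 (R 4.3.3; glmQLFit, glmQLFTest) over all 25 libraries and 5 groups. p-values were adjusted over the 15625 genes tested, and adjusted p-values in the report come from this fit unless the sentence names another setting, left-out libraries or DESeq2. SE is the log2 difference divided by the square root of the F statistic. The fit was tested on simulated data. Normalised counts are counts divided by TMM library size and multiplied by the mean of those sizes. Coordinates come from GENCODE M21 (GRCm38) and upstream sequences from RefSeq (GRCm38.p6).

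The members, companion lists and markers were chosen with earlier results of these data known. All 10 members are named, and of each companion list up to 4 called genes per contrast with the largest change among those with a mean of at least 1 TPM in the higher group; the 3 genes with the highest Pearson r to each member are also named. Some genes that these rules would name are not reported here. Mmp3, Mmp24, Mmp28, Adamts5 and single marker genes, and Lcn2 by sample, were named after their values were seen. No pair of libraries in a group held near-identical counts. Alternatives were DESeq2 1.42.0 (test and size factors), no filter, only the groups compared, a replicate block, each replicate left out, no minimum fold, and 2 added after seeing the data that left out libraries with low hepatocyte or high pancreas markers.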

Additional observations from a re-analysis of the deposited data

Results flagged for a closer look

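In 7 of 40 sets of libraries (a gene in a group of 4 to 10) 1 library stood apart from the rest on the log2 CPM scale by Dixon's criterion, which chance meets in about 1 in 20. The value given is the gap to the nearest library as a share of the range. In DEN-PT-WD, replicate 7 was highest for Timp2 (0.794) and Timp3 (0.744), and replicate 4 was highest for Adamts1 (0.624). In DEN-T-WD, replicate 5 was lowest for Mmp14 (0.745). In nonDEN-L-WD, replicate 2 was lowest for Mmp14 (0.878) and highest for Adamts1 (0.884), and replicate 3 was lowest for Mmp8 (0.868), where it held 1.03 normalised counts.

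The effect of DEN differed between the diets by edgeR for Mmp8 (4.40 on the log2 scale, adjusted p = 0.0157) and, at a smaller size, for Mmp14 (0.988, adjusted p = 0.0119). Mmp8 was not called without nonDEN-L-CD replicate 3 (edgeR adjusted p = 0.057) or under the replicate block (0.0708). DEN-PT-WD is tissue beside tumors, so the contrast does not hold DEN and diet alone.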

How the results depend on the processing

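Low counts limit Mmp8, Mmp7, Mmp9 and Timp1, and groups of 3 and 4 libraries limit the contrasts with untreated liver. The count of members called in tumors against nonDEN-L-WD was 3 throughout, including each replicate left out (3 to 3). The cause of the changes below was not tested, except where fewer libraries or genes entered.

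With each replicate left out, the count ranged from 0 to 2 for tumor against peritumoral liver (reported as 1), 1 to 2 for peritumoral liver against nonDEN-L-WD (2), 1 to 2 for western against control diet (1), 0 to 2 for DEN on control diet (1), 1 to 2 for peritumoral liver against DEN-L-CD (2) and 0 to 3 for the difference between DEN effects (1). With no minimum fold the counts were 3 for tumor against peritumoral liver, 3 for peritumoral liver against nonDEN-L-WD, 2 for western diet, 2 for DEN on control diet, 4 for peritumoral liver against DEN-L-CD and 2 for the difference between DEN effects. Without the 2 libraries with the lowest hepatocyte markers, tumor against peritumoral liver had 0. Without the libraries with high pancreas markers it had 0, western diet 2, DEN on control diet 0 and the difference between DEN effects 2, and the 2 for peritumoral liver against DEN-L-CD held Mmp2 in place of Timp1. DESeq2 gave 2 for the difference between DEN effects, the fit without a filter 1 for peritumoral liver against DEN-L-CD, and the fit of only the groups compared 0 for western diet, because Mmp8 was then filtered out and 8 members were tested.

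Whether equal replicate numbers pair the samples is not stated. In no contrast did all pairs correlate over 0.1 in their deviations (mean r from -0.0485 to 0.149), and the numbers were not taken as pairs. These correlations cannot decide it. The highest mean r, 0.149, came from DEN on control diet, whose groups hold different mice. For tumor against peritumoral liver, where samples could share a mouse, 2 of 6 pairs were over 0.1 (r from -0.23 to 0.34). The block was fitted on only the groups compared, which also changes the genes tested. Set against the fit of those same libraries without it, calls over all genes went from 367 to 165 for peritumoral liver against nonDEN-L-WD, 724 to 308 for DEN on control diet, 1073 to 897 and 2166 to 2116 for tumor against peritumoral liver and nonDEN-L-WD, and 490 to 460 for the difference between DEN effects, and rose from 284 to 354 for peritumoral liver against DEN-L-CD and 686 to 747 for western diet. With the replicate block the counts were 0 for tumor against peritumoral liver, 1 for peritumoral liver against nonDEN-L-WD, 2 for western diet (Mmp13 and Mmp7, with Mmp8 filtered out) and 0 for DEN on control diet. For the difference between DEN effects the block left 1, Mmp14 (1.01, edgeR adjusted p = 0.0146) in place of Mmp8 (3.81, 0.0708). The other calls not made were Mmp13 in tumor against peritumoral liver (0.99, 0.0493), Timp1 in peritumoral liver against nonDEN-L-WD (1.54, 0.066) and Mmp8 under DEN on control diet (-2.16, 0.187). On western diet Mmp13 gave 1.43 (0.0448), Mmp7 -1.67 (0.0317) and Mmp2 1.09 (0.0872).

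Of the genes listed as most similar, 10 of 30 were shared when ranked by Spearman rho and 6 of 30 when ranked on deviations from group means. FPKM gave the same order of the 10 members as TPM in each group.

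Signs changed only for differences that were not called. Under the block they were 0.15 for Mmp2 and -0.037 for Adamts1 in tumor against peritumoral liver, -0.36 for Mmp9 in tumor against nonDEN-L-WD and 0.031 for Adamts1 in the difference between DEN effects. Without the low-hepatocyte libraries they were 0.17 for Mmp2 and -0.081 for Mmp8 in tumor against peritumoral liver, -0.045 for Timp3 in peritumoral liver against nonDEN-L-WD, -0.34 for Mmp7 in tumor against nonDEN-L-WD and -0.050 for Mmp9 in peritumoral liver against DEN-L-CD. Without the high-pancreas libraries they were -0.40 for Mmp8 and -0.0029 for Adamts1 in tumor against peritumoral liver, -0.052 for Timp3 in peritumoral liver against nonDEN-L-WD, 0.11 for Mmp9 under DEN on control diet, -0.073 for Mmp9 in peritumoral liver against DEN-L-CD, and 0.022 for Mmp2 and 0.014 for Adamts1 in the difference between DEN effects. With single replicates left out, ranges across 0 were -0.14 to 0.16 (Mmp2), -0.38 to 0.39 (Mmp8) and -0.076 to 0.073 (Adamts1) for tumor against peritumoral liver, -0.043 to 0.039 (Adamts1) and -0.14 to 0.51 (Timp3) for peritumoral liver against nonDEN-L-WD, -0.34 to 0.28 (Mmp7) and -0.059 to 0.089 (Adamts1) for tumor against nonDEN-L-WD, -0.33 to 0.53 (Timp1) for western diet, -0.13 to 0.11 (Mmp9), -0.064 to 0.082 (Adamts1) and -0.17 to 0.67 (Timp1) for DEN on control diet, -0.10 to 0.14 (Mmp9) for peritumoral liver against DEN-L-CD, and -0.39 to 0.16 (Mmp2), -0.078 to 0.069 (Adamts1), -0.21 to 0.028 (Timp2) and -0.54 to 0.10 (Timp3) for the difference between DEN effects.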
